A study of Mus musculus with 14 samples.

Results

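The 4 microRNA (miRNA) hairpins described here are mir-191, mir-425, mir-22 and mir-21a (mmu-mir-191, mmu-mir-425, mmu-mir-22 and mmu-mir-21a in the files), out of 539 hairpins in the authors' deposited table. They were chosen by name. The choice of mir-191, mir-22 and mir-21a rests on the mean expression column, where they lie near the top, and mir-425 was taken as the genomic partner of mir-191. Their high levels are therefore a description and not a finding. All 4 were found in the table.

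The study sequenced small RNA from exosomes, the small vesicles that cells release, of adipose tissue macrophages (ATMs), here the CD11b+F4/80+ macrophages of fat. The macrophages came from C57BL/6 mice and stayed in medium with 10% exosome-free serum for 72 h, and the exosomes were then taken from that medium by ultracentrifugation. Of the 14 libraries, 7 are labelled obese and 7 lean. The way the mice became obese, their sex, and any pooling of animals were not stated. All age labels begin at 24 weeks and end between 26 and 32 weeks in obese libraries and between 33 and 39 weeks in lean libraries, stepping by 1 week per sample. If those ends hold, age and obesity cannot be told apart. Nothing says that the libraries came from separate animals, so p-values reflect the spread among the libraries, which may be technical.

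A miRNA is cut from a folded hairpin, and its mature strand guides an Argonaute protein to messenger RNAs. Pairing rests mainly on the seed, bases 2 to 8 of the mature strand. miR-191 is broadly expressed and often serves as a reference in measurements of small RNA, and miR-425 is cut from the same primary transcript. miR-22 accompanies myeloid differentiation and is also known from heart and fat. miR-21 is induced by STAT3, AP-1 and NF-κB signals, lowers PDCD4, and restrains Toll-like receptor signalling in macrophages.

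The mature strands are shown because the table gives 1 value per hairpin, to which either strand can contribute. They are from RefSeq on GRCm38.p6, written 5′ to 3′ with the seed in capitals. The strands usually found in excess are miR-191-5p, miR-425-5p, miR-22-3p and miR-21a-5p. This is background, since the table cannot separate the arms.
mmu-miR-191-5p: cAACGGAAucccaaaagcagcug
mmu-miR-191-3p: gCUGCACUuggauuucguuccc
mmu-miR-425-5p: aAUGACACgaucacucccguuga
mmu-miR-425-3p: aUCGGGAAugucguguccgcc
mmu-miR-22-5p: aGUUCUUCaguggcaagcuuua
mmu-miR-22-3p: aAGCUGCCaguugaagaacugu
mmu-miR-21a-5p: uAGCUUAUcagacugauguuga
mmu-miR-21a-3p: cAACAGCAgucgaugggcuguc

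The 8 seeds are all different, so the 4 hairpins form no seed family. Among all RefSeq mouse miRNAs, the seed of miR-425-5p recurred in miR-489-3p and that of miR-21a-5p in miR-21c. Neither of these is among the 539 rows. The related strands miR-21b and miR-21c are shown for comparison with miR-21a-5p.
mmu-miR-21b: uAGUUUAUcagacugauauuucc
mmu-miR-21c: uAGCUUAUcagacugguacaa
The longest run of bases shared with miR-21a-5p was 13 in miR-21b and 15 in miR-21c. No run of 20 bases of any of the 4 hairpins occurred in a GENCODE M21 transcript of a gene elsewhere in the genome.

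The hairpins mir-191 and mir-425 lie on the plus strand of chromosome 9, at chr9:108568319-108568392 and chr9:108568777-108568861 on GRCm38.p6, with 384 bases between them. Both lie in the single annotated exon of the long noncoding RNA 4833445I07Rik in GENCODE M21, upstream of Dalrd3. An annotated miRNA gene, Gm24083, covers mir-191 on the opposite strand. The strand setting of the authors' counting was not stated, so reads of these genes may not be told apart. The pair is shown as hairpins because the values below compare strands cut from the same primary transcript. Capitals mark the mature arms.
mir-191: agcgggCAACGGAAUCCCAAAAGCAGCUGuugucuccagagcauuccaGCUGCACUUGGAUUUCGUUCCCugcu
mir-425: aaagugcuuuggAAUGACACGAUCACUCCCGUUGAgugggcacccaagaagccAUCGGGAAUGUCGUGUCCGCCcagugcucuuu

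The other hairpins lie on chromosome 11. The hairpin mir-22 is on the plus strand at chr11:75463716-75463810, in an exon of its host RNA Mir22hg and of 1 transcript of Tlcd2. The hairpin mir-21a is on the minus strand at chr11:86584067-86584158, in the 3′ untranslated region of Vmp1, which encodes a membrane protein of autophagy. Predicted folding energies per base were −0.47 kcal/mol for mir-191, −0.37 for mir-425, −0.44 for mir-22 and −0.50 for mir-21a. The median of the 447 hairpins of the table that matched RefSeq by symbol was −0.42 kcal/mol per base, so the members lay on both sides of it.

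In the authors' deposited table, mean log2 expression over both groups was 15.69 for mir-191, rank 1 of 539. It was 15.02 for mir-22 (rank 4) and 14.94 for mir-21a (rank 5) in the authors' deposited table. The cluster partner mir-425 was at 9.44, rank 79, in the authors' deposited table. The table median was 2.34. Values per sample cannot be shown, because the table gives group comparisons alone, and the scaling behind the levels was not stated.

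Raised to linear scale, the mean expression of mir-191 made up 9.78% of the sum over all 539 hairpins, mir-22 6.16%, mir-21a 5.84% and mir-425 0.129%. The 4 members together held 21.9% of that sum, and the 20 most abundant hairpins 72.7%. These shares come from means of logs and are not shares of reads. Neither vesicles per cell nor the number of cells behind a library is known, so fewer cells and less RNA per cell cannot be told apart.

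The neighbours in this order were close. The deposited mean log2 expression of mir-10a, a miRNA of the Hox clusters, was 15.65, which is 0.04 below mir-191. The deposited value of mir-27b, a miRNA tied to fat cell differentiation, was 15.09, and that of mir-221 was 14.73, on either side of mir-22 and mir-21a. If all libraries weigh alike, the standard error of a mean over the 14 libraries is 0.5 times that of the fold change: 0.26 for mir-191, 0.28 for mir-425, 0.26 for mir-22 and 0.62 for mir-21a. The gap of 0.04 between mir-191 and mir-10a and that of 0.08 between mir-22 and mir-21a were smaller than these errors. The gap of 0.67 between mir-191 and mir-22 was larger than either hairpin's error, and could not be tested without values per library. Around mir-425, let-7j (9.62), mir-328 (9.54), mir-501 (9.43) and let-7e (9.41) in the authors' deposited table all lay within 0.19.

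The table does not name the numerator of its fold changes. The published study of these exosomes, used here as background, found miR-155 enriched with obesity, and in the authors' deposited table mir-155 has a log2 fold change of 4.41 (adjusted p = 0.00205, limma). Read that way, positive fold changes mean more in obese ATM exosomes. All directions below hold relative to mir-155.

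None of the 4 members passed an adjusted p of 0.05 in the authors' limma test over all 539 hairpins, against 5.57% of all hairpins. At an unadjusted p under 0.05, 2 of the 4 passed, mir-191 and mir-425, against 17.6% of all hairpins, or 8.53% counting the positive side alone. Of the 20 most abundant hairpins, 10 passed on the positive side, mir-191 among them, and of the 50 most abundant, 16. The count of members was 1 of 4 (mir-191) after recentring by 0.34, the median log2 fold change of the 180 most abundant hairpins. It was 0 of 4 after recentring by 1.09, the median of the reference miRNAs described below. Both mir-191 and mir-425 belong to that reference list, so their values after recentring by 1.09 are partly set by the choice of centre. Fold changes of all 4 were positive as deposited. After subtracting 0.34, 3 were positive, and after subtracting 1.09, 2 were.

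The hairpin mir-191 had a log2 fold change of 1.54 in the authors' deposited table (p = 0.00911, adjusted p = 0.107, limma). Its standard error, the fold change over t, is 0.53, and the 95% interval runs from 0.43 to 2.64, or 1.35-fold to 6.25-fold. The p ranked 46 among 539 and missed the adjusted threshold. With the centre taken as known, the value was 1.20 (95% interval 0.09 to 2.30) after recentring by 0.34 and 0.45 (−0.65 to 1.56) after recentring by 1.09.

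The partner mir-425 had a log2 fold change of 1.22 in the authors' deposited table (p = 0.0399, adjusted p = 0.251, limma). Its standard error was 0.55 and its 95% interval 0.06 to 2.38. The value was 0.88 (95% interval −0.28 to 2.04) after recentring by 0.34 and 0.14 (−1.02 to 1.29) after recentring by 1.09, and both intervals include 0.

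The hairpin mir-22 had a log2 fold change of 0.54 in the authors' deposited table (p = 0.308, adjusted p = 0.629, limma). Its standard error was 0.51 and its 95% interval −0.54 to 1.62, or 0.687-fold to 3.08-fold. Its sign turned to −0.55 when fold changes were recentred by 1.09.

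The hairpin mir-21a had a log2 fold change of 0.24 in the authors' deposited table (p = 0.848, adjusted p = 0.948, limma). Its standard error of 1.24 gives a 95% interval from −2.37 to 2.85, or 0.194-fold to 7.20-fold. Its sign turned to −0.10 after recentring by 0.34 and to −0.84 after recentring by 1.09. The data thus bound mir-22 within a few fold and mir-21a far less closely, at nearly equal mean expression.

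**Figure D1:**
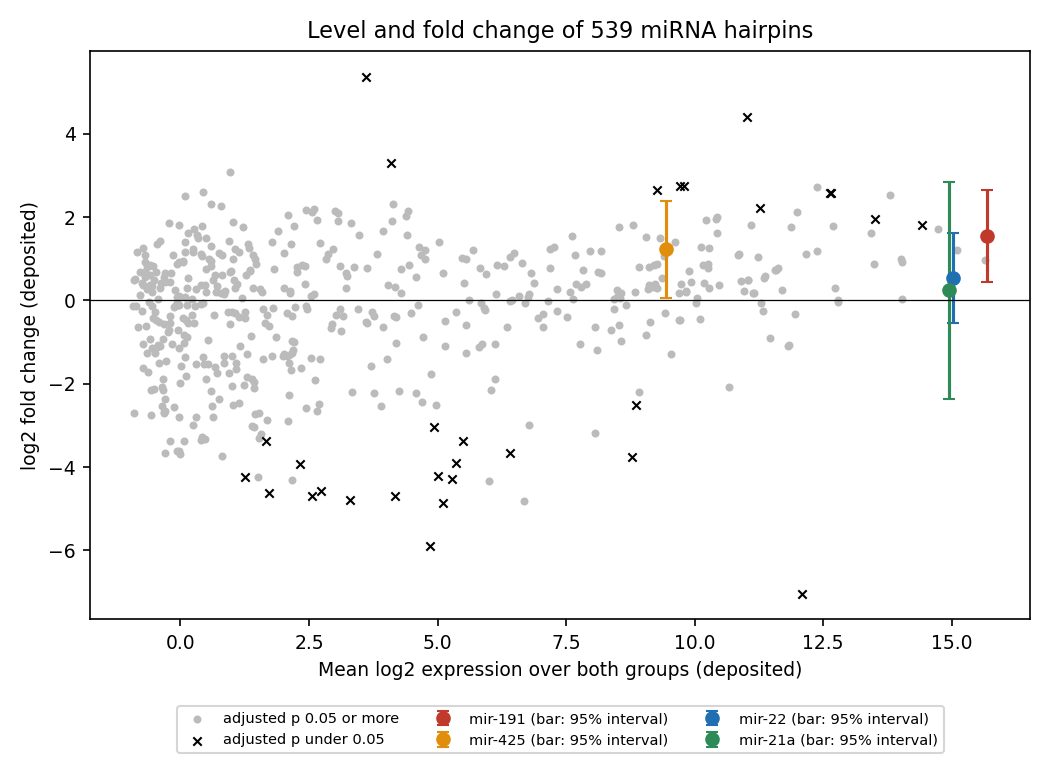
Deposited mean log2 expression (horizontal axis) against deposited log2 fold change (vertical axis) for 539 hairpins, with crosses for an adjusted p under 0.05 and bars for the 95% intervals of the 4 members. mir-191, mir-22 and mir-21a lie at the right edge at 15.69, 15.02 and 14.94, mir-425 at 9.44, and the bar of mir-21a runs from −2.37 to 2.85.

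Group levels can be estimated if positive stands for obese and all libraries weigh alike, by adding or subtracting 0.5 times the fold change. mir-191 was then at 16.46 in obese and 14.92 in lean ATM exosomes on the log2 scale, rank 1 and rank 3 of 539. mir-22 was at 15.29 in obese and 14.75 in lean, rank 6 and rank 5. mir-21a was at 15.06 in obese and 14.82 in lean, rank 8 and rank 4. mir-425 was at 10.05 in obese and 8.83 in lean, rank 70 and rank 93. On these estimates mir-191, mir-22 and mir-21a stayed among the 8 hairpins of highest level in either group. If positive stands for lean instead, the values and ranks of the groups change places. The ranks carry no test.

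The other hairpins of the top 20 give the frame for these values. Of these 20, 4 passed the adjusted threshold (limma), namely mir-222, let-7i, mir-181a-2 and its copy mir-181a-1, all positive. Over all hairpins 5.57% passed, and 2.04% on the positive side. The median log2 fold change of the 20 was 1.10 and 19 were positive, against a median of 0.09 and 284 positive among all 539. After recentring by 0.34, 15 of the 20 were positive. Recentring by 1.09 left 10 positive, which only restates the median of 1.10. The values of mir-191 and mir-425 lie above the median of the 20, those of mir-22 and mir-21a below it. Recentring by 0.34 or by 1.09 left 2 of the 20 past the threshold.

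By nearness of log2 fold change among the 50 most abundant hairpins of the authors' deposited table, mir-191 was next to mir-30d (1.61), mir-221 (1.72) and mir-125a (1.77). mir-425 was next to mir-27b (1.21), mir-30a (1.18) and mir-25 (1.11) in the authors' deposited table. mir-22 was next to let-7f-1 (0.54), let-7f-2 (0.57) and mir-26a-2 (0.50), and mir-21a to mir-23a (0.24), mir-320 (0.25) and mir-16-2 (0.18), in the authors' deposited table. None of these neighbours passed the adjusted threshold. Likeness here is over 1 comparison, since no values per library are given.

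**Figure D2:**
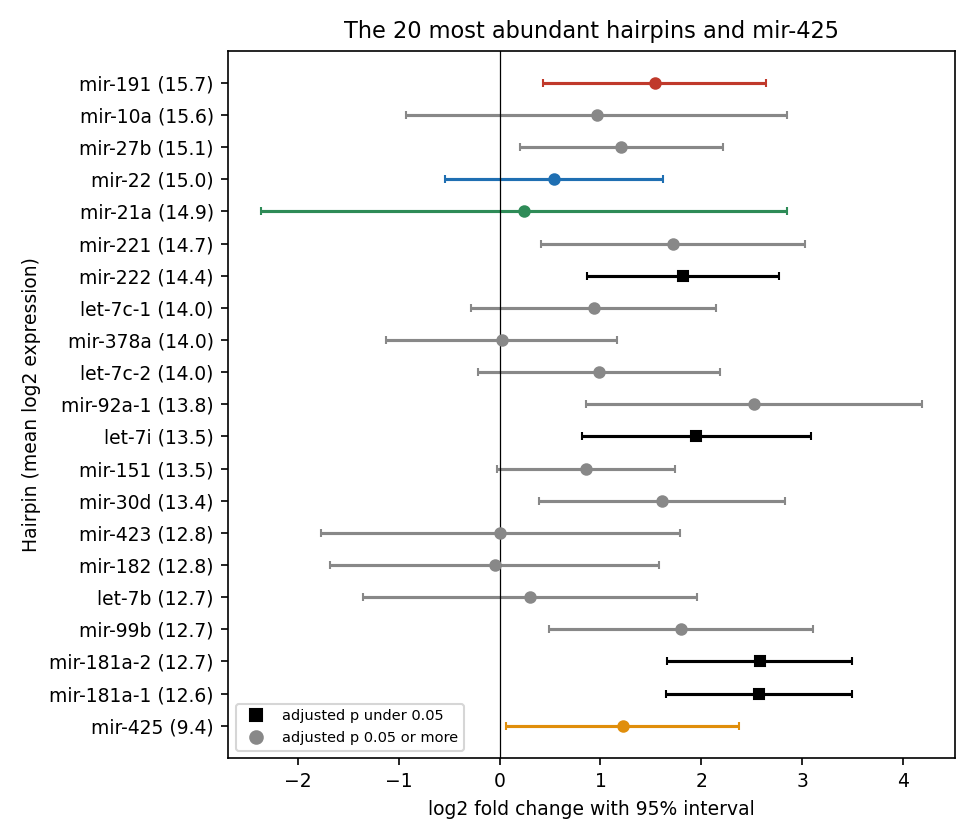
Deposited log2 fold change (horizontal axis) with 95% intervals for the 20 most abundant hairpins and mir-425, ordered by mean log2 expression in brackets, with squares for an adjusted p under 0.05. mir-222, let-7i and both mir-181a copies pass, the interval of mir-191 (0.43 to 2.64) lies above 0, and that of mir-21a (−2.37 to 2.85) is the widest shown.

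The members differed in precision. Standard errors of the log2 fold change were 0.53 for mir-191, 0.55 for mir-425, 0.51 for mir-22 and 1.24 for mir-21a, against a median of 0.97 over all hairpins. The median over ranks 1 to 10 in mean expression was 0.56, and the error of mir-21a had rank 3 from the top among the 50 most abundant hairpins. The smallest absolute t that was called is 3.53. At that t a call would have needed a 3.62-fold difference for mir-191, where 2.90-fold was measured. It would have needed 3.85-fold for mir-425 (2.33-fold measured), 3.53-fold for mir-22 (1.45-fold measured) and 20.8-fold for mir-21a (1.18-fold measured).

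A standard error in limma is the product of a part set by the weights of the libraries and a residual standard deviation (SD) between libraries of the same group. B, the log odds of a difference in the authors' deposited table, depends on t, on the first part and on a prior share of changed hairpins. With that share assumed to be limma's default of 0.01, both parts could be separated up to a common factor. Above the table median, the recovered weight rose with mean expression among the 191 hairpins where B allows 1 solution (Spearman's rho = 0.999, a description). Where B allows 2, as for mir-191 and mir-425, the solution nearer to hairpins of like expression was kept, so their weights follow expression by construction. The hairpins mir-22 and mir-21a had nearly the same weight, 3.67 and 3.66 times that of the median hairpin, mir-191 had 3.78 times and mir-425 2.05 times.

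At the prior share of 0.01, the residual SD of mir-21a was 2.24 times that of the median hairpin, rank 4 of 539. It was 0.97 times for mir-191, 0.93 times for mir-22 and 0.75 times for mir-425, rank 286, 314 and 488. The residual SD of mir-21a was thus 2.41 times that of mir-22. Among the 50 most abundant hairpins only mir-5103 had a larger residual SD at that share, at 3.06 times the median hairpin. There mir-146b, a feedback regulator of NF-κB signalling, followed mir-21a at 2.13 times. These ranks depend on the share, as given in the last section. mir-10a was at 1.66 times and mir-27b at 0.86 times. The median was 0.98 over ranks 1 to 10 in mean expression and 1.01 over ranks 181 to 539. These SDs are limma's moderated values, drawn toward a common value. Which libraries were high or low in mir-21a, and in which group, is not known here.

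**Figure D3:**
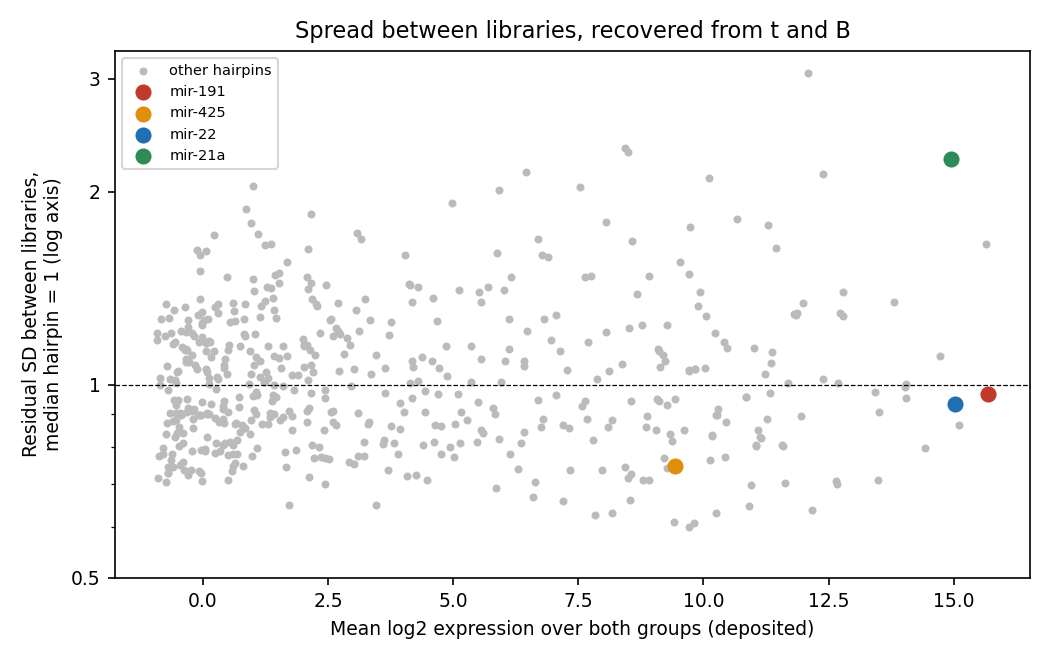
Mean log2 expression (horizontal axis) against the residual SD between libraries of the same group (vertical axis, log scale), as a multiple of the median hairpin, for 539 hairpins. mir-21a lies at 2.24 on the right, above mir-191 (0.97), mir-22 (0.93) and mir-425 (0.75).

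B of mir-21a was the lowest of all 539 hairpins in the authors' deposited table, at −6.55, although mir-423 and others had a t nearer to 0. By the construction of B, a small t gives lower odds where the weight is higher. For mir-191, mir-425 and mir-22 the authors' deposited table gives B of −2.98, −4.08 and −6.02. A B under 0 means odds under even, given the prior share of changed hairpins, which is assumed to be 0.01 here. That low share itself lowers every B.

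The cluster partners mir-191 and mir-425 differed far more in level than in fold change. Mean log2 expression differed by 6.25 or 76.1-fold, while the log2 fold changes of 1.54 and 1.22 in the authors' deposited table differed by 0.32. That difference is smaller than the standard error of either, and smaller than 0.76, which would be its own error if the errors were independent.

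To place the pair, hairpins of the table that could be placed on GRCm38 through RefSeq and lie next to each other within 10 kb on the same strand were collected, which gave 72 pairs, some sharing a hairpin. The median gap in mean log2 expression was 1.89. The larger gap of mir-191 and mir-425 is a description, since mir-191 was chosen for its high level and mir-425 as its partner. The median gap in log2 fold change was 0.69, or 0.51 over the 39 pairs with both hairpins above the median mean expression. Of all 72 pairs, 22 had a smaller gap in fold change than mir-191 and mir-425. Their gap in level had rank 7 among the 72 pairs. Larger gaps included those of mir-182 with mir-96 (8.61) and mir-127 with mir-136 (7.48). Among 72 pairs 46 had fold changes of the same sign, as mir-191 and mir-425 do, and among the 39 pairs above the median 27 did. No other placed hairpin of the table lies within 10 kb of a member on the same strand. Mature strands differ in how well they are ligated and amplified, so levels of different miRNAs are compared here only as deposited.

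**Figure D4:**
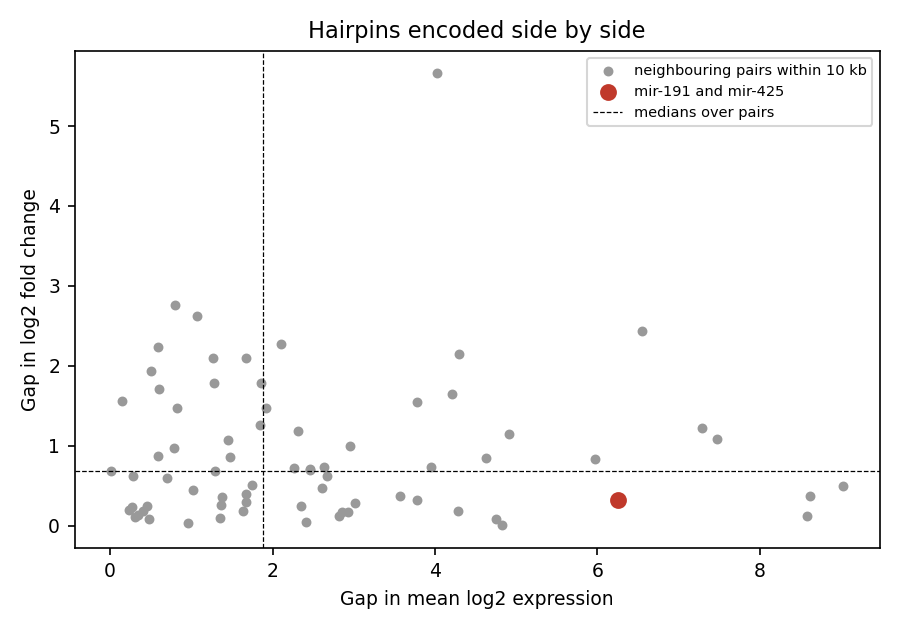
Absolute gap in mean log2 expression (horizontal axis) against absolute gap in log2 fold change (vertical axis) for 72 pairs of neighbouring hairpins, with dashed medians of 1.89 and 0.69. The pair of mir-191 and mir-425 lies at 6.25 and 0.32.

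Both partners belong to a list of 7 miRNAs that are commonly used as stable references for extracellular RNA: miR-191, miR-425, miR-103, miR-423, miR-93, miR-16 and miR-451a. The list has 9 hairpins, all of which were found in the table. None passed the adjusted threshold in the authors' limma test. At an unadjusted p under 0.05, 3 passed (mir-93, mir-191 and mir-425), all positive, against 17.6% of all hairpins, or 8.53% on the positive side alone. Of these 3, mir-191 and mir-425 are the members already counted above. Among the 50 most abundant hairpins, 16 passed on the positive side and 42 were positive. All 9 reference hairpins were positive as deposited, 5 of them after recentring by 0.34. At that centre 2 passed at an unadjusted p under 0.05. None passed after recentring by 1.09, but that centre is the median of these same 9 hairpins, so nothing is read from it. The median log2 fold change was 1.09, against 0.09 over all hairpins and 1.10 over the 20 most abundant.

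The reference hairpins fell at different values. In the authors' deposited table mir-93, of the miR-106b cluster, was at 1.62 (adjusted p = 0.0942, limma), mir-103-2 at 1.11 and mir-103-1 at 1.09. The copies mir-16-1 and mir-16-2, which share a mature strand, were at 0.18 each, the erythroid mir-451a at 0.09 and mir-423 at 0.01 in the authors' deposited table. The values thus spanned 1.62 on the log2 scale, or 3.07-fold. Their 95% intervals overlapped, that of mir-423 running from −1.78 to 1.79, and differences between references were not tested.

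Setting a hairpin against a reference from the same libraries shows unequal change only. Against mir-191, mir-155 was 7.30-fold, and against mir-423 it was 21.1-fold. Against mir-423, mir-191 was 2.89-fold, mir-425 2.32-fold, mir-22 1.45-fold and mir-21a 1.18-fold. Against mir-191, mir-22 was 0.501-fold and mir-21a 0.407-fold. These ratios have no error here, since the errors of hairpins from the same libraries are linked in a way the table does not give.

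**Figure D5:**
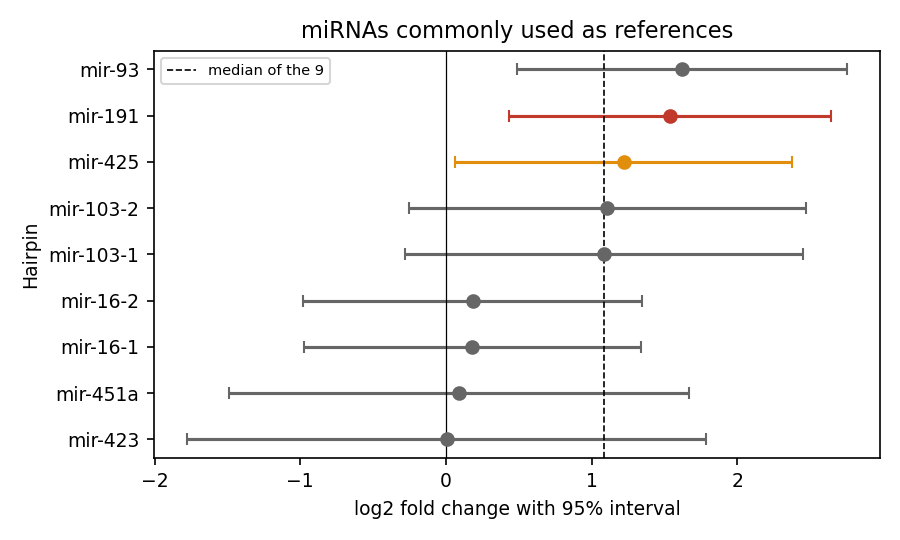
Deposited log2 fold change (horizontal axis) with 95% intervals for the 9 hairpins of 7 reference miRNAs, with the median of 1.09 dashed. mir-93 (1.62), mir-191 (1.54) and mir-425 (1.22) have intervals above 0, and mir-16-1, mir-16-2, mir-451a and mir-423 lie between 0.01 and 0.18.

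The macrophage label was set against marker miRNAs. All 6 myeloid and inflammatory markers were in the table at a mean log2 expression from 4.17 (mir-511) to 12.39 (mir-146b), with the leukocyte marker mir-142a at 9.70 and the myeloid mir-223 at 7.62 in the authors' deposited table, all below mir-191, mir-22 and mir-21a. Lymphocyte markers ran from 3.24 to 12.66, endothelial from 5.91 to 6.46, adipocyte and preadipocyte from 0.97 (mir-193b) to 14.04 (mir-378a), and mesenchymal from 0.22 to 6.59. Erythrocyte markers ran from 4.15 to 11.81 (mir-486a), and epithelial markers from 0.11 to 3.62. Striated muscle markers were 2 of 5 in the table at 2.27 each, and the liver marker mir-122 was at 2.15. At the adjusted threshold (limma), 1 of 6 myeloid markers passed on the positive side, mir-155, whose sign was used to read the table, and 1 on the negative side, mir-511. Of the lymphocyte markers 4 of 5 passed on the positive side, all of them copies of 2 miRNAs, miR-181a and miR-181b, while mir-150 was at 0.59 (adjusted p = 0.910, limma). Of the adipocyte and preadipocyte markers 1 of 5 passed on the negative side, mir-365-2 at −3.75, while its copy mir-365-1 was at 0.98. No marker of the other lists passed. Background over all hairpins was 2.04% positive and 3.53% negative. The part of other cells in the values of the members was not tested.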

How the data were processed

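Small RNA libraries of ATM exosomes (7 obese, 7 lean) are summarised in 1 table of the authors' comparison. Per the file headers, the authors deposited fold changes and mean expression as log2 values, a moderated t as a score, p-values before and after adjustment, and B as a natural log of odds. Per the submitters' processing notes, FastQC, MultiQC and Trimmomatic 0.30 were used, as were Novoalign, edgeR and limma, with no roles stated. For the build, annotation, filters, scaling and strand setting, details were not given in the sources used here, and those steps decide how reads of shared sequence enter a row.

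The table has 0 columns of values per library, so no model was fitted to libraries and the depth is unknown. The adjusted p equals a Benjamini-Hochberg adjustment over 539 rows. From t and p, 17.9 total degrees of freedom were recovered, and standard errors are the fold change divided by t. Weights and residual SDs were obtained by solving limma's formula for B with its default prior share of 0.01. Of 539 rows, 133 had 2 solutions, including mir-191 and mir-425, and the one nearer to rows of like expression was kept. Tested on data simulated with limma 3.58.1 (R 4.3.3), this recovered the relative SD within 1% in 531 of 539 rows, and within 6.33% in the rest. The simulated data had 200 changed rows, 99.5% of them called, and were fitted and solved with the same share. The test thus covers the solving of the formula. It cannot tell whether the authors' fit used that share or weights of that kind. Tables were computed in Python 3.11.15 with scipy 1.17.1 and folding energies with RNAfold 2.7.2.

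Sequences are from RefSeq on GRCm38.p6 and genes from GENCODE M21 on the same assembly. The rule for named hairpins takes the 4 members, mir-155, the nearest 2 above and below in mean expression, the 3 nearest in fold change among the top 50, hairpins sharing a seed or lying within 10 kb, and the reference list. The 20 most abundant were a frame. Others, such as mir-5103, mir-146b, mir-182, mir-96, mir-127 and mir-136, were named after their values were seen. The members and lists were chosen with earlier results of these data known.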

Additional observations from a re-analysis of the deposited data

How the results depend on the processing

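No member passed the adjusted p threshold under any of 6 other settings (3 centres of the fold changes, an expression minimum, 1 hairpin per stem and a threshold of 0.1), with adjusted p running from 0.0601 to 0.648 for mir-191, 0.174 to 0.902 for mir-425, 0.557 to 0.909 for mir-22 and 0.716 to 0.990 for mir-21a. The value of 0.0601 came from testing the 231 hairpins with mean log2 expression of at least 3.32 alone. Recentring by 0.34, the centre of the 180 hairpins of highest mean expression, turned mir-21a to −0.10, and recentring by 1.09, the median of the reference miRNAs, gave −0.55 for mir-22 and −0.84 for mir-21a. That reference list holds mir-191 and mir-425, which were at 0.45 and 0.14 after it, with intervals that include 0. Either recentring left 2 of the 20 most abundant hairpins past the threshold, and recentring by 1.09 gave 52 calls over all hairpins, 6 positive and 46 negative, against 30 as deposited, 11 positive and 19 negative. Recentring by 0.34 gave 8 positive and 25 negative calls. The expression minimum gave 16 of each sign. At an adjusted p under 0.1, 1 reference hairpin, mir-93, passed. The residual SD of mir-21a was 2.10 and 2.05 times the median hairpin with prior shares of 0.02 and 0.05, chosen after seeing the data. Among hairpins above the table median with 1 solution, the weights followed mean expression with a rho of 0.980 at 0.02 (213 hairpins). The rho was 0.960 at 0.05 (231 hairpins) and 0.999 at 0.01 (191 hairpins). Over all 269 hairpins above the median, those with 2 solutions included, rho was 0.830 at 0.02, 0.796 at 0.05 and 0.998 at 0.01. Leaving out each library was not run, since it needs values per library. No paired analysis was possible because no library has values of its own here. Depth per library is unknown, so no counting limit can be given.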
